A study of Mus musculus with 48 samples.

Results

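The 9 genes followed here encode transcription factors of the smooth muscle phenotype, and they were measured in the thoracic aorta of mice given β-aminopropionitrile (BAPN), an inhibitor of collagen and elastin cross-linking that weakens the arterial wall and leads to aortic dissection (AD). The members, Srf, Mef2c, Gata6, Klf2, Klf4, Klf5, Prrx1, Twist1 and Tcf21, were taken by symbol from the gene count table, where all 9 of them were among the 18782 genes listed, and 8 of the 9 held enough counts to be tested. All mice were wild-type C57BL/6J animals that entered at 3 weeks of age. Controls drank normal water, and the others drank 0.4% BAPN for 28 days and were then sorted by the state of their aorta. The male groups were MaCon (10 controls), MaNonAD (4 mice on BAPN with no lesion found under the microscope) and MaAAD (7 mice on BAPN with AD or an aneurysm). The female groups were FeCon (10), FeNonAD (8) and FeAAD (9), defined in the same way. Each of the 48 libraries came from 1 mouse. Only mice that survived to the end of the 28 days were sequenced, so the AAD groups hold no animal that died of rupture, and the outcome groups were not assigned at random.

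Smooth muscle cells of the aortic wall keep a contractile state through serum response factor (SRF), which binds the CArG box in the promoters of contractile genes together with the coactivator myocardin. MEF2C is a MADS-box factor of the same class as SRF and acts in the development of vascular and cardiac muscle, and GATA6 is a zinc finger factor known for holding vascular smooth muscle in the differentiated state. KLF4 and KLF5 are zinc finger factors known for opposing the contractile programme or driving growth after injury, and KLF2 is best known as a flow-induced factor of endothelium. PRRX1 is a homeobox factor of mesenchyme, TWIST1 a basic helix-loop-helix (bHLH) factor of mesenchymal transition, and TCF21 a bHLH factor of adventitial and epicardial mesenchyme that is also linked to modulated smooth muscle cells.

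Srf has CArG boxes of its own, and its promoter is shown because Srf was the member whose level lay closest to that of the contractile genes below. The 250 bases before the Srf start in RefSeq (GRCm38.p6, chr17:46556163-46556412, minus strand) read as follows, in the direction of the gene, with 2 CArG boxes in capitals.
Srf: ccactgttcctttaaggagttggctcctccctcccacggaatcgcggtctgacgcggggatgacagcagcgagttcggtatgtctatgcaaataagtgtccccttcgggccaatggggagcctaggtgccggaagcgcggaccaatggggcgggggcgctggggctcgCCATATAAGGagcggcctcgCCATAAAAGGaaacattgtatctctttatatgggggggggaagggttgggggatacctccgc
The boxes ended 72 and 52 bases before the start.

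The CArG box was searched in 32851 RefSeq promoters, each running from 250 bases before to 50 bases after a start. Only exact matches of CCWWWWWWGG, with W for A or T, were counted. Boxes with a mismatch or outside these windows could not be found, so a gene without a match here may still have a box. The pattern reads the same on both strands, and a match can overlap another. Of all promoters 1.63% held one. Srf was the only one of the 7 members with a promoter in the table that held a box, while Klf2, Klf4, Mef2c, Tcf21, Prrx1 and Twist1 had none in these windows. Promoters of Gata6 and Klf5 were not analysed here. Of the contractile genes listed below, 17 had a promoter in the table and 2 held a box, namely Myl9 (myosin light chain) and Vcl (vinculin). Of the SRF cofactors, 7 had a promoter and 2 held a box, namely the LIM domain genes Fhl1 and Fhl2. These sites are given as the genes whose counts are reported beside Srf, with the box in capitals.
Myl9 (chr2:156775293-156775322, plus strand): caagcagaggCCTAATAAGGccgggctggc
Vcl (chr14:20929161-20929190, plus strand): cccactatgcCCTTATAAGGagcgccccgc
Fhl1 (chrX:56779571-56779600, plus strand): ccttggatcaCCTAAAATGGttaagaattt
Fhl2 (chr1:43163973-43164002, minus strand): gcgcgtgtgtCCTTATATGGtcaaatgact
Fhl2, second start (chr1:43196838-43196867, minus strand): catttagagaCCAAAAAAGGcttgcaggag
A match of these letters is a description of the window and was not tied to binding in these samples.

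Levels are given as counts per 1000000 counts of a library (CPM), after scaling of the library sizes. A member rose or fell where the Benjamini-Hochberg adjusted p of edgeR's quasi-likelihood test, over all 14431 genes tested, was under 0.05, and changes are log2 fold changes with their standard error (SE). Library totals ran from 13548003 to 17281262 counts. The tissue carried the markers of its label: the summed level of 6 smooth muscle cell markers (Acta2, Myh11, Tagln, Cnn1, Lmod1, Smtn) ran from 11730 to 59714 CPM over the 48 libraries. FeCon7, FeCon9 and FeAAD3 stood apart by 14 immediate early genes, such as Fos, Egr1 and Atf3, whose transcription responds quickly to stimuli. Their sum was 3393, 3089 and 3810 CPM in these libraries, against 570 to 1561 CPM in the other 45. The members and the lists were also tested without FeCon7 and FeCon9 and without FeAAD3, and a call of a member or of a gene described below that changed is given both ways. In whole tissue, fewer cells of a type and less RNA per cell cannot be told apart.

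In FeAAD against FeCon, 4 of the 8 tested members passed the test, with Prrx1 higher and Srf, Gata6 and Klf4 lower, where 44.4% of all genes did. The number was also 4 when FeCon7 and FeCon9 were left out, but with Klf2 higher (0.52, adjusted p = 0.028) in place of Klf4. In MaAAD against MaCon, 3 members passed, with Prrx1 higher and Srf and Gata6 lower, where 35.0% of all genes did. With the additional criterion of a log2 fold change of at least 1 in size, no member was a differentially expressed gene in either comparison, where 12.7% of genes in females and 11.4% in males met it; at an unadjusted p under 0.05 there were 4 of the 8 tested members in each, beside 50.7% and 43.6% of all genes, and DESeq2 called 4 in females and 3 in males. The CPM ranges of the AAD and Con groups overlapped for all 9 members in both sexes, while 4.89% of tested genes in females and 8.91% in males had ranges that did not overlap. The estimated changes of the members were thus under 2-fold, and the members passed the test at a rate near that of all genes.

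**Figure D1:**
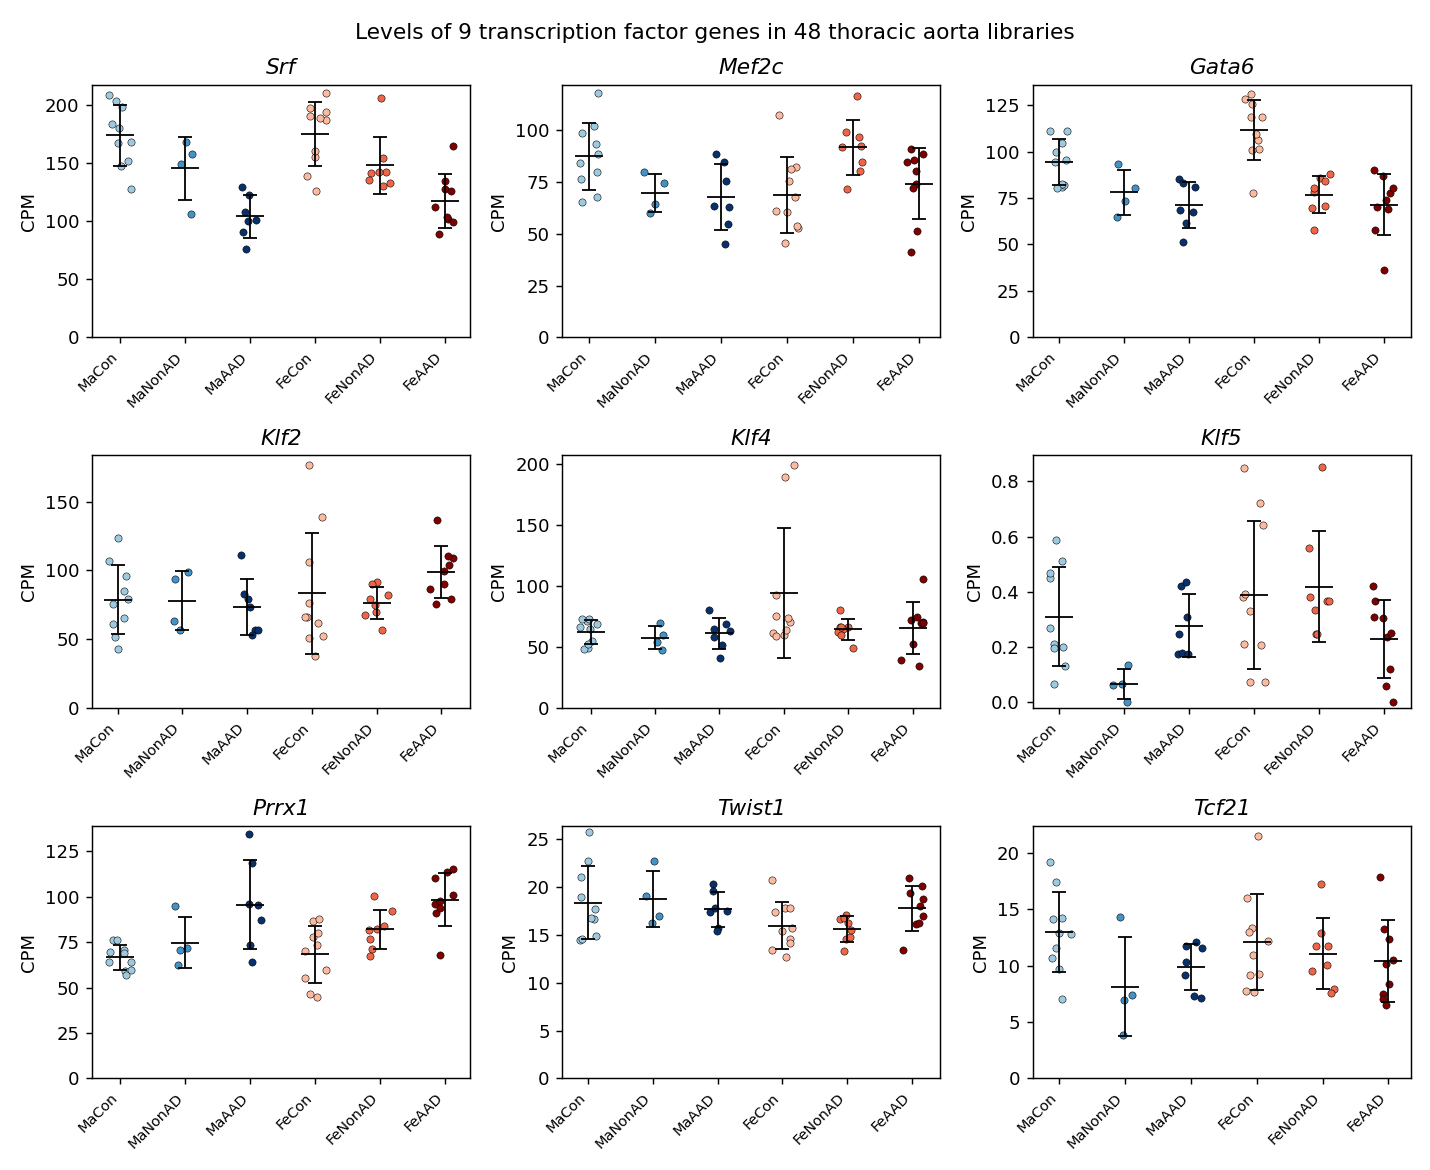
Level of each member in CPM (linear axes) in the 48 libraries by group; points are libraries, and bars give the mean ± SD. Srf lay at 128 to 209 CPM in MaCon and at 76.1 to 129.6 CPM in MaAAD, Klf4 was high in 2 FeCon libraries, and Klf5 stayed below 1 CPM.

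Srf, the factor that binds the CArG box, ran from 128 CPM at the lowest over a median of 174 to 209 CPM at the highest in MaCon. In MaNonAD its levels were 106, 149, 158 and 168 CPM, and in MaAAD they ran from 76.1 over 101 to 129.6 CPM. All 7 MaAAD libraries lay below the MaCon median, and only the top of MaAAD reached into the MaCon range. In females Srf ran from 126 over 188 to 210.4 CPM in FeCon, from 130.1 over 142 to 206 CPM in FeNonAD and from 88.8 over 112 to 165 CPM in FeAAD. All 9 FeAAD libraries were below the FeCon median.

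On the log2 scale Srf fell by 0.74 in MaAAD against MaCon (SE 0.12, adjusted p = 5.8e-06) and by 0.57 in FeAAD against FeCon (SE 0.11, adjusted p = 6.2e-05), a level 0.599 and 0.673 times that of the controls. Without FeCon7 and FeCon9 the female fall was 0.52 (adjusted p = 0.00045), and without FeAAD3 it was 0.65 (adjusted p = 8.1e-06). It also fell by 0.33 in FeAAD against FeNonAD (SE 0.12, adjusted p = 0.045), where it was the 1 member of 8 to pass and 18.2% of all genes did. This last call was lost with no filter on low counts (adjusted p = 0.060), in a fit of the 2 groups alone (0.090) and with covariates for transcript length and GC content (0.103), all with a fall of 0.26 to 0.33. In MaAAD against MaNonAD the difference was -0.48 (SE 0.15, adjusted p = 0.071), larger in size than in females but with 4 mice in MaNonAD; 0.409% of all genes passed there. Without MaNonAD replicate 1, which had the lowest Srf level of its group, it was -0.61 with an adjusted p of 0.032. NonAD differed from Con by -0.24 in females (SE 0.12, adjusted p = 0.166) and by -0.26 in males (SE 0.15, adjusted p = 0.512). The order of the mean levels was MaAAD, FeAAD, MaNonAD, FeNonAD, MaCon and FeCon, and the step from FeAAD (118 ± 23.2 CPM, SD, n = 9) to MaNonAD (145 ± 27.4 CPM, SD, n = 4) was the only one between neighbours that exceeded the larger of the 2 SDs.

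Averaging the effects over both sexes uses the same libraries as the comparisons within a sex. On this scale Srf fell by 0.66 in AAD against Con (SE 0.08, adjusted p = 8.1e-09) and by 0.41 in AAD against NonAD (SE 0.10, adjusted p = 0.0014). In NonAD against Con it was at -0.25 (SE 0.09, adjusted p = 0.077), and it passed there in the fit of the compared groups alone (-0.24, adjusted p = 0.049) and with the length and GC covariates (-0.23, adjusted p = 0.037). In AAD against Con 3 of 8 members passed (52.8% of all genes), in AAD against NonAD 2 of 8 (25.0% of all genes) and in NonAD against Con 1 of 8 (11.2% of all genes).

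The contractile genes known as SRF targets fell with Srf. Of 20 such genes, all 20 fell in FeAAD against FeCon, in MaAAD against MaCon and on average over both sexes, where the median change was -1.04 against -0.02 over all genes, 26.3% of all genes fell and 26.5% rose. In FeAAD 19 of the 20 fell when FeCon7 and FeCon9 were left out, and Vcl was at -0.37 (adjusted p = 0.064). Synpo2, an actin-bundling gene, fell by 1.39 (SE 0.17, adjusted p = 1.8e-09) and Des, which encodes the intermediate filament desmin, by 1.29 (SE 0.16, adjusted p = 2.6e-09). Acta2, smooth muscle actin, fell by 0.92 (SE 0.13, adjusted p = 7.8e-08). The smallest fall was that of Cald1 at 0.37 (SE 0.10, adjusted p = 0.0020), and 16 of the 20 had a larger estimated fall than Srf, at 0.66. In FeNonAD against FeCon 4 of the 20 fell, where 14.5% of all genes passed the test, and their median change was -0.42; 3 fell without FeCon7 and FeCon9. In MaNonAD against MaCon none passed (edgeR; 6 had an unadjusted p under 0.05 and DESeq2 called none), where 0.624% of all genes did, and their median change was -0.40. The 6 smooth muscle cell markers, which are also in this list, fell in both sexes in AAD, and their summed level ran from 27510 to 59714 CPM in MaCon and from 11730 to 29183 CPM in MaAAD, and from 30042 to 51829 CPM in FeCon and from 13829 to 31672 CPM in FeAAD.

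Among the genes whose level was most like that of a member over the 48 libraries, those of Srf were the closest. Pearson's r of log2(CPM + 1) was 0.95 with Acta2, 0.95 with Cnn1 (calponin) and 0.94 with Myl9. After the group means were taken out, Acta2 (r = 0.90) and Cnn1 (r = 0.90) still came first and Pdlim7 followed (r = 0.86). Srf followed the summed smooth muscle cell markers within groups at r = 0.90. These correlations are descriptions over 48 libraries that share depth and composition of the tissue. The summed smooth muscle cell markers moved with Srf, but these markers are all in the list of contractile SRF targets as well. Their sum therefore cannot separate the share of smooth muscle in the tissue from transcription that depends on SRF. The part of either in the fall of Srf was not tested.

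**Figure D2:**
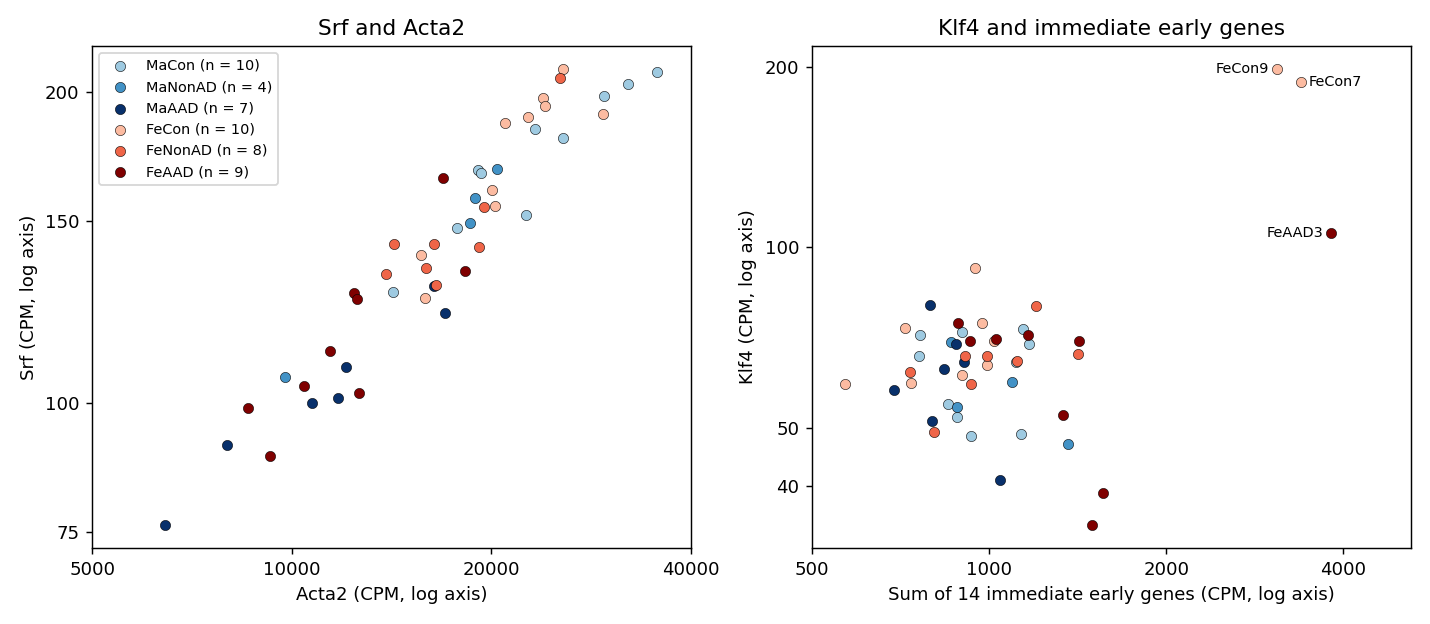
Each point is 1 of 48 libraries, with both axes in CPM on a log scale: Srf against Acta2 on the left, and Klf4 against the sum of 14 immediate early genes on the right. Srf and Acta2 lie along 1 band from 76.1 to 210.4 CPM of Srf and from 6432 to 35597 CPM of Acta2, with the AAD libraries at its lower end; FeCon7, FeCon9 and FeAAD3 stand apart on the right with 3089 to 3810 CPM of immediate early genes.

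The partners of SRF moved in different directions. Of 8 cofactors and ternary complex factors, 2 rose and 3 fell in AAD against Con over both sexes, near the shares over all genes. Of all genes 26.5% rose and 26.3% fell there. The median change of the list was -0.01, against -0.02 over all genes. Myocd, which encodes myocardin, fell by 1.07 (SE 0.14, adjusted p = 2.3e-08). Its level was 258 ± 61.9 CPM in MaCon, 140 ± 26.9 in MaNonAD and 110.4 ± 36.5 in MaAAD, and 287 ± 88.3 CPM in FeCon, 237 ± 46.4 in FeNonAD and 152 ± 50.9 in FeAAD (SD). In MaAAD against MaCon, Myocd fell by 1.22 (SE 0.21, adjusted p = 1.1e-05), and in FeAAD against FeCon by 0.92 (SE 0.19, adjusted p = 0.00014), beside log2 falls of 0.74 and 0.57 for Srf. Fhl1 also fell (by 0.62, SE 0.09, adjusted p = 1.4e-07). Elk3, a ternary complex factor that competes with myocardin for SRF, rose by 1.07 (SE 0.09, adjusted p = 6.7e-14), and its ranges in AAD (49.4 to 106 CPM in FeAAD and 57.4 to 89.3 CPM in MaAAD) lay above those of the controls (26.1 to 39.9 CPM in FeCon and 27.5 to 48.1 CPM in MaCon). Fhl2 rose by 0.96 (SE 0.20, adjusted p = 7.9e-05). The myocardin-related factors that respond to actin did not pass the test, Mrtfa at 0.03 (SE 0.08, adjusted p = 0.751) and Mrtfb at 0.02 (SE 0.10, adjusted p = 0.867).

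Mef2c, the MEF2 factor, had opposite signs in the 2 sexes in NonAD against Con and in AAD against Con. In FeCon its level ran from 45.6 over a median of 64.5 to 107 CPM, in FeNonAD from 71.6 over 92.1 to 116 CPM and in FeAAD from 41.3 over 80.2 to 90.9 CPM. In MaCon it ran from 65.5 over 86.2 to 118 CPM, in MaNonAD it was 60.0, 64.3, 74.6 and 80.0 CPM, and in MaAAD it ran from 44.8 over 63.4 to 88.6 CPM. All groups overlapped. Male and female controls differed by 0.35 (SE 0.14, adjusted p = 0.079) and MaNonAD and FeNonAD by -0.40 (SE 0.19, adjusted p = 0.720), and neither difference passed the test.

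Mef2c rose by 0.42 in FeNonAD against FeCon (SE 0.14, adjusted p = 0.044), a comparison in which 2 of 8 members passed and 14.5% of all genes did. The call was lost without FeCon replicate 10 (0.41, adjusted p = 0.060) and without FeCon7 and FeCon9 (0.36, adjusted p = 0.108). In males the same comparison gave -0.33 (SE 0.18, adjusted p = 0.502). The difference between the male and the female effect was -0.74 (SE 0.24) with an unadjusted p of 0.0028 and an adjusted p of 0.146. MaAAD differed from MaCon by -0.36 (SE 0.15, adjusted p = 0.057) and FeAAD from FeCon by 0.11 (SE 0.14, adjusted p = 0.549), and the difference of these effects was -0.48 (SE 0.21, adjusted p = 0.244). The libraries differed in the ratio of long to short transcripts, and within groups Mef2c, whose longest transcript has 6277 bases, followed this ratio at r = 0.63. With that ratio and a GC ratio as covariates, an alternative chosen after seeing the data, Mef2c was lower in MaAAD than in MaCon (-0.40, adjusted p = 0.0095), higher in male than in female controls (0.50, adjusted p = 0.0016, against 0.35 and 0.079 without the covariates), and the sex differences passed the test (-0.66 with an adjusted p of 0.042 for NonAD, and -0.59 with 0.029 for AAD). The difference of MaNonAD from FeNonAD went from -0.40 to -0.16 with these covariates (adjusted p = 0.999). Mef2c counts were not whole in 47 of 48 libraries before rounding, and the reason was not tested.

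Of the 8 other MEF2 genes and co-regulators, 5 fell and none rose in AAD against Con over both sexes (edgeR, median -0.31). In this comparison 26.3% of all genes fell and 26.5% rose. Mef2d fell by 0.39 (SE 0.08, adjusted p = 5.6e-05) and Hdac5, a class IIa deacetylase that binds MEF2 factors, by 0.62 (SE 0.10, adjusted p = 1.6e-06), whereas Mef2a was at -0.17 (SE 0.08, adjusted p = 0.077). In females 6 of the 8 fell and in males 3 (the difference in this count was not tested). Of all genes 44.4% and 35.0% passed there in either direction. Nr3c1, the glucocorticoid receptor gene, was the gene most like Mef2c, with r = 0.89 both over the 48 libraries and within groups. Hdac9, another class IIa deacetylase, was also among the 3 closest over the 48 libraries (r = 0.84).

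Gata6, the GATA factor of differentiated smooth muscle, fell in AAD in both sexes and in females also in NonAD. Its level in FeCon ran from 77.8 over a median of 113.9 to 131 CPM, in FeNonAD from 57.9 over 79.2 to 88.0 CPM and in FeAAD from 36.2 over 74.0 to 89.8 CPM. In MaCon it ran from 80.5 over 94.8 to 111 CPM, in MaNonAD it was 64.8, 73.4, 80.4 and 93.4 CPM, and in MaAAD it ran from 51.1 over 68.4 to 85.4 CPM. All 9 FeAAD and all 7 MaAAD libraries were below the median of their controls. In females only the lowest control, FeCon3, reached into the range of the BAPN groups.

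Gata6 fell by 0.54 in FeNonAD against FeCon (SE 0.12, adjusted p = 0.0020), by 0.65 in FeAAD against FeCon (SE 0.12, adjusted p = 1.3e-05) and by 0.40 in MaAAD against MaCon (SE 0.12, adjusted p = 0.0093). In MaNonAD against MaCon it differed by -0.27 (SE 0.15, adjusted p = 0.489), and no member passed the test in that comparison, where 0.624% of all genes did and 1 of the 8 tested members, Tcf21, had an unadjusted p under 0.05, as 12.0% of all genes had; DESeq2 called none either. Over both sexes Gata6 fell by 0.41 in NonAD against Con (SE 0.10, adjusted p = 0.0051) and by 0.53 in AAD against Con (SE 0.09, adjusted p = 1.2e-06). The difference of AAD from NonAD did not pass the test, at -0.11 in females (SE 0.12, adjusted p = 0.568) and -0.13 in males (SE 0.16, adjusted p = 0.692), with 95% intervals of the difference from -0.35 to 0.13 and from -0.44 to 0.17. The calls on Gata6 held under every alternative fit run for these comparisons. Within groups Gata6 followed the length ratio at r = 0.68, and with the length and GC covariates the falls remained past the threshold. Of 6 other GATA and cofactor genes tested, 3 fell in AAD against Con over both sexes and none rose (edgeR). Of all genes 52.8% passed there, with 26.3% that fell. The GATA genes that fell were Gata3 (-0.39, adjusted p = 0.033), Gata4 (-0.55, adjusted p = 0.026) and Gata5 (-0.53, adjusted p = 0.035). In females 4 of the 6 fell in AAD and in males none (edgeR, with none at an unadjusted p under 0.05 and none by DESeq2). Of all genes 44.4% in females and 35.0% in males passed in either direction. Gata4 differed from Con by -0.997 in FeAAD (adjusted p = 0.0041) and by -0.09 in MaAAD (adjusted p = 0.842), and Gata5 by -1.28 (adjusted p = 0.00048) and 0.22 (adjusted p = 0.625). The male minus female differences of these effects were 0.90 (SE 0.41, adjusted p = 0.277) for Gata4 and 1.49 (SE 0.43, adjusted p = 0.064) for Gata5 and did not pass the test. Several heart muscle and mesothelial markers also fell in FeAAD against FeCon, with fewer or none in MaAAD against MaCon. The difference between the sexes in these counts was not tested. Of 10 heart muscle markers, 7 fell in FeAAD (median -1.55) and 2 in MaAAD (median -0.13), and of 4 mesothelial markers (Msln, Upk3b, Lrrn4, Wt1), 3 fell in FeAAD (median -0.85; 2 without FeCon7 and FeCon9 or without FeAAD3) and none in MaAAD (edgeR; median 0.20, 1 at an unadjusted p under 0.05 and none by DESeq2). Summed mesothelial markers ran from 43.9 to 238 CPM in FeCon, from 30.6 to 101 CPM in FeAAD, from 49.97 to 208 CPM in MaCon and from 45.2 to 156 CPM in MaAAD, and the part of these cells in the falls of Gata4 and Gata5 was not tested. Rhoj, a small GTPase gene, was the gene most like Gata6 over the 48 libraries (r = 0.91).

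**Figure D3:**
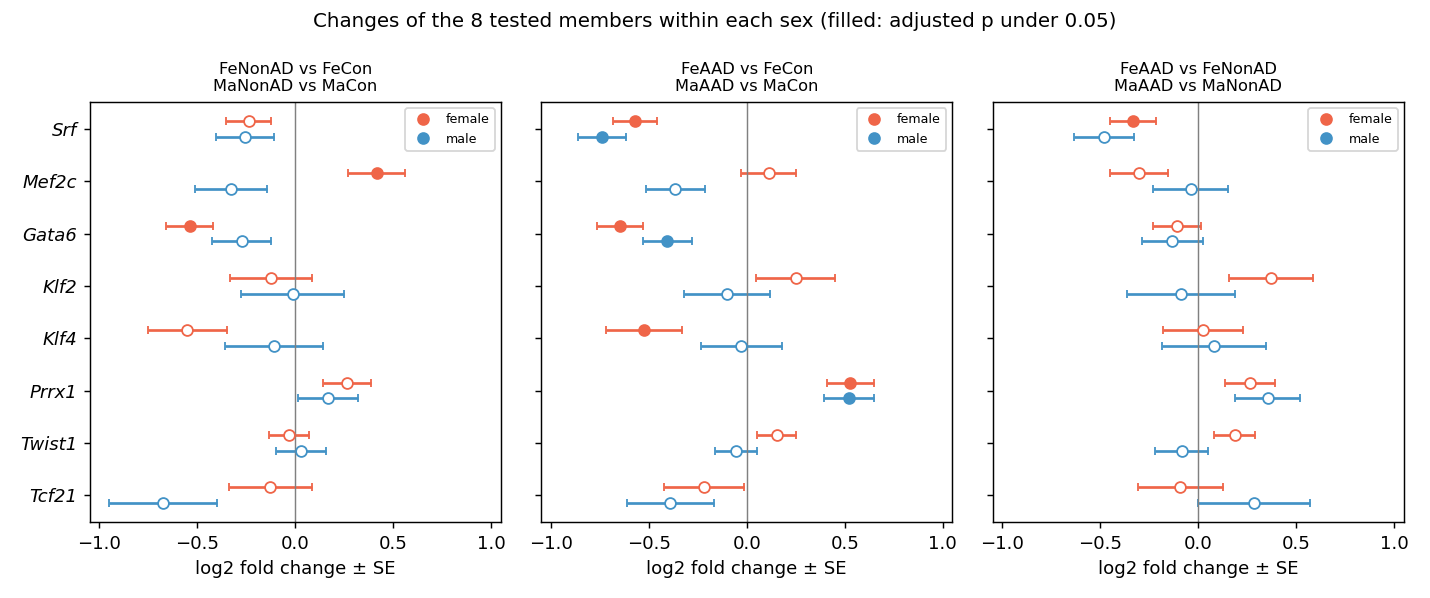
Log2 fold change ± SE of the 8 tested members, females in red and males in blue, for NonAD against Con, AAD against Con and AAD against NonAD; filled points have an adjusted p under 0.05. In AAD against Con, Srf (-0.57 and -0.74), Gata6 (-0.65 and -0.40) and Prrx1 (0.53 and 0.52) are filled in both sexes, and Mef2c is filled on the positive side for female NonAD mice only.

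Klf4, the factor known for opposing the contractile state, did not rise in any comparison. In FeCon it ran from 59.2 over a median of 71.6 to 198 CPM, in FeNonAD from 49.2 over 65.4 to 79.8 CPM and in FeAAD from 34.4 over 69.8 to 106 CPM. In MaCon it ran from 48.6 over 65.2 to 73.0 CPM, in MaNonAD it was 47.1, 54.2, 59.6 and 69.5 CPM, and in MaAAD it ran from 41.0 over 62.6 to 80.1 CPM. The female controls FeCon7 (189 CPM) and FeCon9 (198 CPM) and the diseased FeAAD3 (106 CPM) lay above all the other 45 libraries, which ran from 34.4 to 92.4 CPM, and these are the 3 libraries with the highest immediate early gene counts.

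Klf4 fell by 0.53 in FeAAD against FeCon (SE 0.19, adjusted p = 0.025) and was at a lower level in male than in female controls, by a log2 difference of -0.60 (SE 0.19, adjusted p = 0.027). It was the 1 member of 8 to differ between male and female controls, where 14.3% of all genes did. Without FeCon7 and FeCon9, which was chosen after seeing the data, the differences were -0.08 (adjusted p = 0.668) and -0.15 (adjusted p = 0.489), and neither passed the test. FeAAD3 was kept in this fit, and no fit left it out together with FeCon7 and FeCon9. Without FeAAD3 the fall in FeAAD was 0.64 (adjusted p = 0.0064), and the average over both sexes in AAD against Con went from -0.28 (SE 0.14, adjusted p = 0.099) to -0.34 (adjusted p = 0.041). The calls in FeAAD against FeCon and in MaCon against FeCon were also lost in fits of the compared groups alone (adjusted p = 0.134 and 0.065). The fall in FeAAD was also lost with the length and GC covariates (-0.37, adjusted p = 0.121). In FeNonAD against FeCon it differed by -0.55 (SE 0.20, adjusted p = 0.056). It passed there with DESeq2 (-0.55, adjusted p = 0.043) and with the covariates (-0.53, adjusted p = 0.041), and without FeCon7 and FeCon9 it was at -0.10 (adjusted p = 0.711). In MaAAD against MaCon it differed by -0.03 (SE 0.21, adjusted p = 0.936), with a 95% interval from -0.43 to 0.38. Within groups Klf4 followed the summed immediate early genes at r = 0.58, and its part in the Klf4 result was not tested beyond leaving these libraries out. The gene most like Klf4 was Fgfr3 over the 48 libraries (r = 0.75) and Sik1, a salt-inducible kinase gene, within groups (r = 0.76).

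Klf2, the flow-induced factor, did not pass the test in any of the 15 comparisons. It ran from 37.7 over a median of 66.2 to 177 CPM in FeCon and from 75.4 over 99.5 to 137 CPM in FeAAD, so that all 9 FeAAD libraries were above the FeCon median, but the spread of FeCon was wide. The difference was 0.25 (SE 0.20, adjusted p = 0.335). Without FeCon7 and FeCon9 it was 0.52 (adjusted p = 0.028), without FeAAD3 it was 0.18 (adjusted p = 0.512), and with length and GC covariates it was 0.39 (adjusted p = 0.037). In males Klf2 ran from 42.8 over 77.3 to 124 CPM in MaCon and from 53.3 over 73.6 to 111 CPM in MaAAD, a difference of -0.10 (SE 0.22, adjusted p = 0.757). Within groups Klf2 followed the GC ratio of the libraries at r = 0.70, the summed immediate early genes at r = 0.60 and the length ratio at r = -0.60. The gene most like it over the 48 libraries was Cebpd (r = 0.71), and within groups Nr1h2 (r = 0.79).

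Of 8 genes known as endothelial targets of KLF2 and KLF4, 1 rose and 2 fell in AAD against Con over both sexes (median -0.19). In this comparison 26.5% of all genes rose and 26.3% fell. Nos3, endothelial nitric oxide synthase, fell by 0.34 (SE 0.13, adjusted p = 0.024) and Cav1, caveolin, by 0.58 (SE 0.09, adjusted p = 1.4e-06), while Sele, the adhesion molecule E-selectin, rose by 1.73 (SE 0.25, adjusted p = 1.5e-07). Nos3 fell by 0.69 in FeAAD against FeCon (adjusted p = 0.0012) and was at 0.02 in MaAAD against MaCon (adjusted p = 0.949), and the difference between these effects, 0.71, did not pass the test (SE 0.25, adjusted p = 0.141). Its average over both sexes was -0.27 (adjusted p = 0.070) without FeCon7 and FeCon9. Cav1 is also abundant in smooth muscle. Of 8 endothelial cell markers 3 rose and 1 fell, and their summed level ran from 341 to 1035 CPM with all groups overlapping. Among the other KLF genes, 4 of 11 tested fell over both sexes and none rose (edgeR, median -0.26), beside 26.3% and 26.5% of all genes. Klf15, a metabolic and circadian KLF of muscle, fell by 1.14 (SE 0.20, adjusted p = 5.4e-06), and Klf9 fell by 0.53 (SE 0.14, adjusted p = 0.0011), with a change of -0.87 in FeAAD (adjusted p = 0.00019) and of -0.19 in MaAAD (adjusted p = 0.482). The difference between these effects of Klf9, 0.68, did not pass the test (SE 0.27, adjusted p = 0.201).

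Klf5, the growth-associated KLF, was near the limit of detection and was not tested. Its counts ran from 0 to 13 per library, and 29 of 48 libraries had more than 3. The counts were 1 to 9 in MaCon, 0 to 2 in MaNonAD, 3 to 7 in MaAAD, 1 to 13 in FeCon, 4 to 13 in FeNonAD and 0 to 7 in FeAAD. MaNonAD was at or under 3 counts in all 4 libraries. With no filter on low counts the lowest adjusted p among the 15 comparisons of Klf5 was 0.113, for NonAD against Con over both sexes (-1.01). Klf5 was the only member with ranges that did not overlap in any comparison of 2 groups, namely in MaAAD against MaNonAD (4.04% of tested genes) and in MaNonAD against FeNonAD (0.762%). In the unfiltered fit these had an unadjusted p of 0.0076 and 0.00054 and an adjusted p of 0.133 and 0.555. Per kilobase of the longest transcript, a scale on which genes can be compared, mean levels over the 48 libraries were 56.0 CPM per kb for Srf, 44.5 for Klf2, 22.8 for Klf4, 22.7 for Gata6, 12.3 for both Mef2c and Prrx1, 10.6 for Twist1, 6.23 for Tcf21 and 0.0907 for Klf5.

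Prrx1, the mesenchymal homeobox factor, was the only member to rise in AAD. In FeCon its level ran from 44.6 over a median of 71.7 to 87.5 CPM, in FeNonAD from 67.2 over 81.9 to 100.5 CPM and in FeAAD from 67.7 over 97.5 to 115 CPM. In MaCon it ran from 57.0 over 66.7 to 76.3 CPM, in MaNonAD it was 62.1, 70.4, 71.5 and 95.03 CPM, and in MaAAD it ran from 64.3 over 95.6 to 134 CPM. Of the FeAAD libraries 8 of 9 and of the MaAAD libraries 6 of 7 were above the median of their controls, with MaAAD1, MaAAD2 and FeAAD8 inside the control range.

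Prrx1 rose by 0.53 in FeAAD against FeCon (SE 0.12, adjusted p = 0.00035) and by 0.52 in MaAAD against MaCon (SE 0.13, adjusted p = 0.0011), 1.44 times the control level in each sex. The male minus female difference of the effects was -0.01, with a 95% interval from -0.35 to 0.34. In NonAD against Con the differences were 0.27 in females (SE 0.12, adjusted p = 0.144) and 0.17 in males (SE 0.15, adjusted p = 0.736). Over both sexes Prrx1 rose by 0.53 in AAD against Con (SE 0.09, adjusted p = 2.0e-06) and by 0.31 in AAD against NonAD (SE 0.10, adjusted p = 0.025). The latter call was lost without MaNonAD replicate 2 (0.27, adjusted p = 0.075) or replicate 4 (0.30, adjusted p = 0.053), and with the length and GC covariates (0.24, adjusted p = 0.059). The gene most like Prrx1 was Plod2, a lysyl hydroxylase gene of collagen, with r = 0.87 over the 48 libraries and 0.79 within groups. The 8 fibroblast markers, of which 2 rose and 3 fell over both sexes, had summed levels of 5815 to 8138 CPM in MaCon, 7750 to 15063 CPM in MaAAD, 5531 to 8534 CPM in FeCon and 7403 to 14834 CPM in FeAAD, and their part in the rise of Prrx1 was not tested.

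Twist1 and Tcf21 were lower in level and did not pass the test in any comparison. Twist1 ran from 12.7 over a median of 15.6 to 20.8 CPM in FeCon and from 13.4 over 18.0 to 21.0 CPM in FeAAD, and from 14.5 over 17.25 to 25.8 CPM in MaCon and from 15.4 over 17.5 to 20.4 CPM in MaAAD. Its difference was 0.15 in females (SE 0.10, 95% interval -0.04 to 0.35) and -0.06 in males (SE 0.11, 95% interval -0.26 to 0.15). A change of 2-fold in either direction lay outside both intervals.

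Tcf21 ran from 7.68 over a median of 11.6 to 21.5 CPM in FeCon and from 6.53 over 10.1 to 17.9 CPM in FeAAD, and from 7.08 over 12.8 to 19.2 CPM in MaCon and from 7.16 over 10.3 to 12.1 CPM in MaAAD. In MaNonAD it was 3.89, 6.95, 7.36 and 14.3 CPM. The differences from Con were -0.39 in MaAAD (SE 0.22, adjusted p = 0.173), -0.22 in FeAAD (SE 0.21, adjusted p = 0.408) and -0.67 in MaNonAD (SE 0.28, unadjusted p = 0.018, adjusted p = 0.281). The male NonAD difference ran from -0.44 without MaNonAD replicate 1 (adjusted p = 0.851) to -1.07 without replicate 2 (adjusted p = 0.084). Without MaNonAD replicate 2, the highest of that group, Tcf21 was lower in NonAD than in Con over both sexes (log2 difference -0.60, adjusted p = 0.028). Gata4 was the gene most like Tcf21 (r = 0.74 over the 48 libraries and 0.75 within groups), and Tnnt2, a cardiac troponin gene, came second over the 48 libraries (r = 0.61). The 10 heart muscle markers were present in all groups, with sums from 79.4 to 756 CPM in FeCon, 41.5 to 147 CPM in FeAAD, 101 to 402 CPM in MaCon and 42.7 to 492 CPM in MaAAD, and 4 of the 10 fell in AAD over both sexes; their part in the spread of Tcf21 was not tested.

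Of 12 bHLH partners and inhibitors of Tcf21 and Twist1, 2 rose and 5 fell in AAD against Con over both sexes (median -0.21). In this comparison 52.8% of all genes passed the test, with 26.5% that rose and 26.3% that fell. Tcf4 (0.34, SE 0.07, adjusted p = 7.3e-05) and Tcf3 (0.18, SE 0.05, adjusted p = 0.0018), which encode E proteins that pair with tissue bHLH factors, rose. Id2 (-0.80, SE 0.10, adjusted p = 4.7e-09) and Id4 (-0.81, SE 0.16, adjusted p = 3.7e-05), which encode inhibitors that sequester E proteins, fell. Tcf3 and Id4 passed the test in females only, at 0.22 and -1.12 (adjusted p = 0.0048 and 5.1e-05), against 0.13 and -0.50 in males (0.151 and 0.091); the difference between the sexes did not pass (0.681 and 0.341). Of 17 other mesenchymal transcription factor genes tested, 8 rose and 5 fell, beside 26.5% and 26.3% of all genes. Runx1 rose by 2.68 (SE 0.24, adjusted p = 1.8e-12) and Runx2 by 2.10 (SE 0.20, adjusted p = 2.5e-12), Foxf1 fell by 0.74 (SE 0.14, adjusted p = 2.6e-05) and Osr1 by 0.38 (SE 0.13, adjusted p = 0.014). Foxf1 was at -1.09 in FeAAD against FeCon (adjusted p = 1.3e-05) and at -0.38 in MaAAD against MaCon (adjusted p = 0.149), and the difference between these effects, 0.70, did not pass the test (SE 0.28, adjusted p = 0.198). Osr1 was at -0.40 in the first of these (adjusted p = 0.065; -0.56 and 0.0068 without FeAAD3) and at -0.36 in the other (adjusted p = 0.146). Runx1 had a level of 4.13 ± 1.20 CPM in MaCon and 31.7 ± 10.7 CPM in MaAAD, and of 5.38 ± 1.74 CPM in FeCon and 28.9 ± 16.5 CPM in FeAAD (SD). Runx1 is also a gene of blood cells. All 10 macrophage and monocyte markers rose in AAD in each sex, with summed levels of 221 to 564 CPM in MaCon, 819 to 3978 CPM in MaAAD, 267 to 629 CPM in FeCon and 645 to 5980 CPM in FeAAD, and all 6 cycling cell markers rose in each sex. Of 5 neutrophil markers, 5 rose in FeAAD and 4 in MaAAD, and of 6 T and B cell markers, 4 rose in FeAAD and 1 in MaAAD. The part of blood cells in the rise of Runx1 was not tested.

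The genes that mark modulated smooth muscle cells and matrix mostly rose. Of 15 such genes, 12 rose and 1 fell in AAD in each sex, with a median change of 1.36 over both sexes. Of all genes 44.4% in females and 35.0% in males passed there in either direction. Spp1, osteopontin, was at 1.51 ± 0.446 CPM in MaCon and 762 ± 749 CPM in MaAAD (SD), and rose by 8.62 over both sexes (SE 0.65, adjusted p = 2.1e-14). Col8a1, a collagen chain made by activated smooth muscle, rose by 4.23 (SE 0.41, adjusted p = 8.8e-12), and Vim, vimentin, fell by 0.44 (SE 0.09, adjusted p = 5.9e-05). Spp1 is also made by macrophages. The 14 immediate early genes were mixed, with 5 that rose and 3 that fell over both sexes, beside 26.5% and 26.3% of all genes. There were 8 that rose and none that fell without FeCon7 and FeCon9 (edgeR), and without FeAAD3 there were 3 and 4. Egr2 rose by 1.97 (SE 0.17, adjusted p = 8.5e-13) and Egr3 by 1.31 (SE 0.21, adjusted p = 1.1e-06), and Atf3 fell by 0.90 (SE 0.32, adjusted p = 0.017), a call that was lost without FeCon7 and FeCon9 (-0.54, adjusted p = 0.118).

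**Figure D4:**
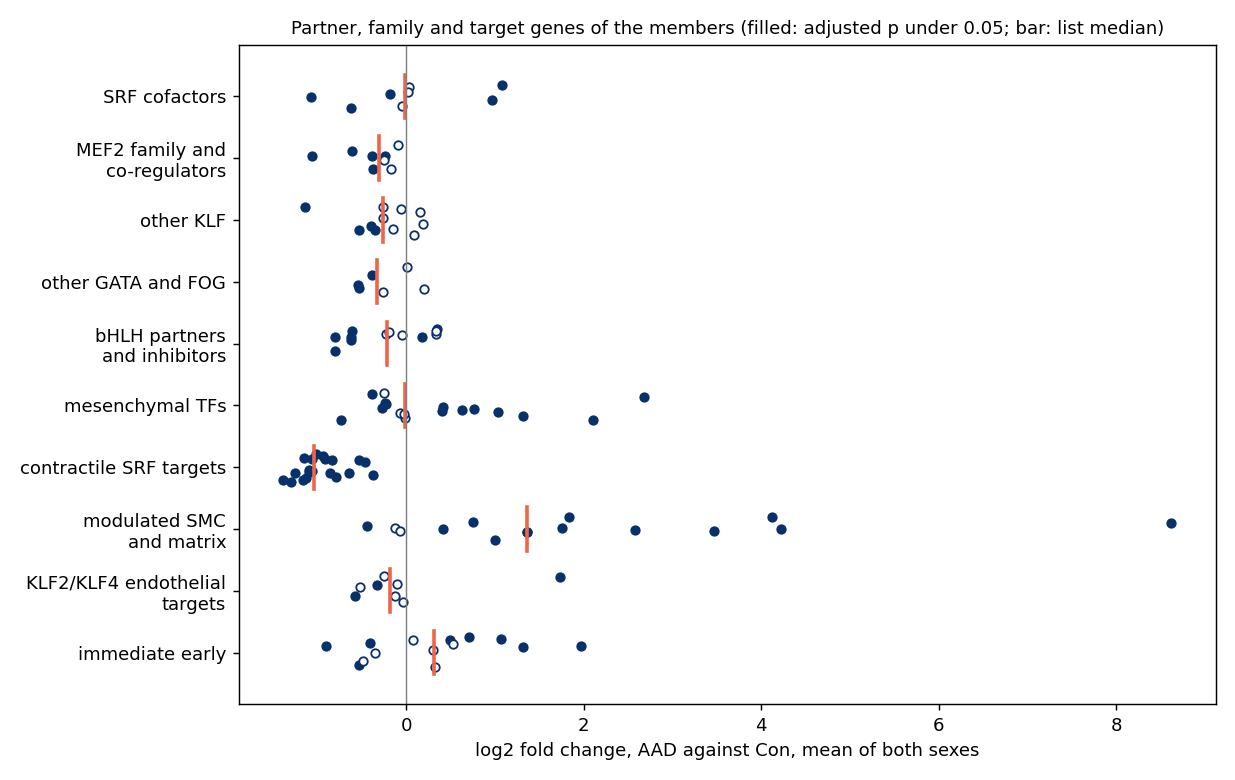
Log2 fold change in AAD against Con, averaged over both sexes, for each tested gene of 10 lists; filled points have an adjusted p under 0.05, and the bar is the list's median. All 20 contractile SRF targets lie below 0 (median -1.04), whereas modulated smooth muscle and matrix genes reach 8.62 with Spp1 (median 1.36).

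A difference between the sexes in the response was tested directly. None of the 8 tested members passed for NonAD against Con (0.416% of all genes did), for AAD against Con (1.34%) or for AAD against NonAD (0%). At an unadjusted p under 0.05 there was 1 of these 8, Mef2c, in each of the first 2 and none in the last, beside 12.1%, 15.4% and 1.04% of all genes, and DESeq2 called none. MaNonAD against FeNonAD and MaAAD against FeAAD also gave none of the 8 past the threshold, with 0.0624% and 0.0901% of all genes past it; of the 8, Mef2c alone had an unadjusted p under 0.05 in the former and none in the latter, beside 6.47% and 2.22% of all genes, and DESeq2 called none. MaAAD and FeAAD differed in Srf by -0.18 (SE 0.12, 95% interval -0.42 to 0.07) and in Klf2 by -0.43 (SE 0.23, 95% interval -0.87 to 0.01).

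Within groups the members were only loosely tied to each other. Deviations of log2(CPM + 1) from the group means were correlated over the 48 libraries for all 36 pairs, with a two-sided permutation test that shuffled libraries within groups (100000 resamples) and Benjamini-Hochberg adjustment over the 36 pairs. Klf4 and Gata6 gave Pearson's r = 0.55 (permutation p = 9.0e-05, adjusted p = 0.0032) and Spearman's rho = 0.57 (permutation p = 8.0e-05, adjusted p = 0.0029), and r = 0.60 without FeCon7 and FeCon9, the farthest libraries on the Klf4 axis. Tcf21 and Twist1, both bHLH genes, gave r = 0.51 (permutation p = 0.00064, adjusted p = 0.012) and rho = 0.50 (permutation p = 0.00090, adjusted p = 0.012), and r = 0.42 without the 2 farthest libraries. Mef2c and Prrx1 gave r = 0.49 (permutation p = 0.0016, adjusted p = 0.019) and rho = 0.50 (permutation p = 0.00096, adjusted p = 0.012), and r = 0.59 without the 2 farthest.

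Mef2c and Gata6 gave r = 0.49 (permutation p = 0.0024, adjusted p = 0.022) but rho = 0.34 (permutation p = 0.025, adjusted p = 0.124), and r = 0.40 without the 2 farthest, so that the rank correlation did not pass. The other 32 pairs had an adjusted p of 0.112 or more for r, among them Srf and Prrx1 (r = -0.37, permutation p = 0.018, adjusted p = 0.112; rho = -0.41, permutation p = 0.0072, adjusted p = 0.065; r = -0.34 without the 2 farthest). Mef2c, Prrx1 and Gata6 have long transcripts (6277, 6527 and 3784 bases), Twist1 and Tcf21 short ones (1628 and 1788 bases), and these pairs followed the length ratio of the libraries with the same sign (r = 0.63, 0.30, 0.68, -0.46 and -0.36 in that order). Klf4 and Gata6 also followed the length ratio with the same sign (r = 0.28 and 0.68). The part of the length ratio in these correlations was not tested.

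**Figure D5:**
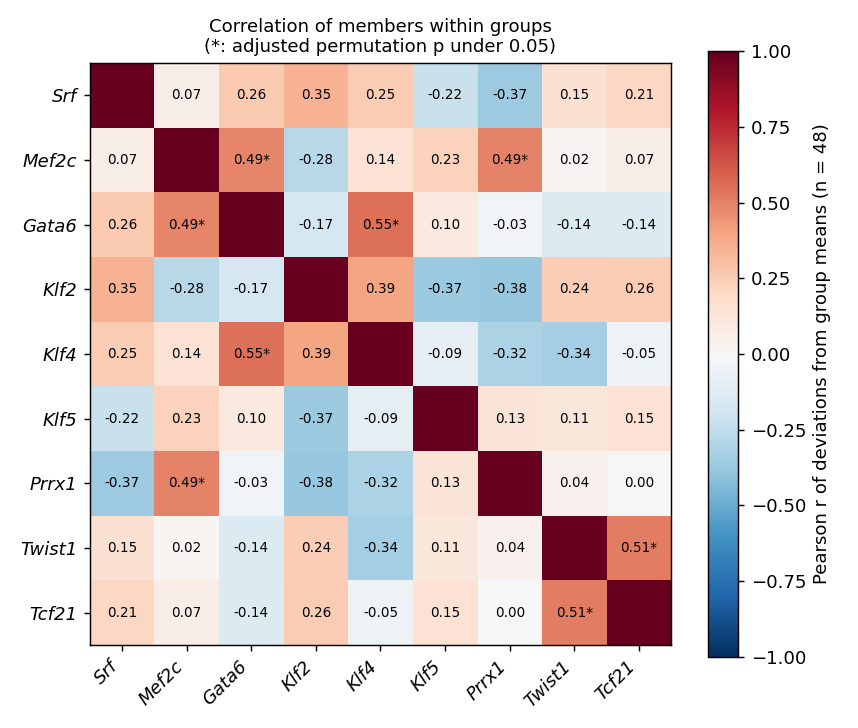
Pearson's r between members within groups, from deviations of log2(CPM + 1) from the group means over 48 libraries; the colour runs from -1 (blue) to 1 (red) and an asterisk marks an adjusted permutation p under 0.05. Marked pairs are Klf4 with Gata6 (0.55), Tcf21 with Twist1 (0.51), and Mef2c with Prrx1 and with Gata6 (both 0.49).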

How the data were processed

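Thoracic aorta RNA of 48 mice in 6 groups was sequenced as strand-specific mRNA libraries, and each mouse gave 1 library. The paper describes the aortic segments used as lesioned, and does not say how the segment was chosen in mice with no lesion. The authors deposited 1 table of expected counts per gene, made by RSEM 1.3.1 with Bowtie2 on GRCm39 according to the submitters' processing notes; whether the counting used strand is not given in the sources used here. Of the deposited values 4.99% were not whole, and counts were rounded. Samples were grouped by their titles. Genes were filtered with filterByExpr (14431 of 18782 kept), libraries scaled by TMM (factors 0.874 to 1.08), and 15 contrasts tested in 1 fit of all libraries with edgeR 4.0.16 (R 4.3.3; robust quasi-likelihood test, Benjamini-Hochberg adjustment over all genes tested). The SE is the size of the log2 fold change divided by the square root of F, and 95% intervals are 1.96 SE to each side. The fit was also run on simulated counts with known fold changes, and the outcome is not reported here. The members and the gene lists were chosen with earlier results of these data known. Named genes were the members and, per list, up to 2 of the largest rises and falls in AAD against Con over both sexes with at least 10 counts on average, with Myocd, Mrtfa, Mrtfb, Mef2a and Mef2d in any case, and the 3 genes most like each member; Acta2, Cald1, Gata3 and the genes with a CArG box were added after their values were seen. Lengths and GC content came from the longest GENCODE M21 transcripts, found for 14092 tested genes (97.7%). The length and GC ratios of a library are differences of medians of log2(CPM + 1) between the upper and lower 25% of genes. Promoters are of GRCm38.p6, not the build of the counts, and no gene coordinates are given. Alternatives were DESeq2 1.42.0, other scaling, no filter, no robust estimation, a replicate block, fits of the compared groups and left-out libraries. Python 3.11.15 was used for the remaining steps.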

Additional observations from a re-analysis of the deposited data

Results flagged for a closer look

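Single libraries stood far from the rest of their group for 3 members on the log2(CPM + 1) scale, by the gap to the nearest library as a share of the group's range (Dixon's test at the 95% level, 54 group and member combinations, of which chance flags about 1 in 20). Srf was at 206 CPM in FeNonAD7, above the other FeNonAD libraries. Gata6 was at 77.8 CPM in FeCon3, below the other female controls, and at 36.2 CPM in FeAAD5, below the other FeAAD libraries. FeCon3 and FeAAD5 also had the lowest length ratio of their groups (-0.435 and -0.669), a ratio that Gata6 followed within groups at r = 0.68. The part of this ratio in the low Gata6 levels was not tested. Prrx1 was at 67.7 CPM in FeAAD8, below the other FeAAD libraries.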

How the results depend on the processing

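The falls of Srf and Gata6 and the rise of Prrx1 in AAD against Con kept their direction and their side of the threshold in each sex and over both sexes under every alternative fit. Of 38 differences of a member followed through 396 alternative values, 365 kept direction and call, 16 lost the call, 15 gained one and none changed sign. The differences followed had an unadjusted p under 0.05 in the main fit, except Klf2 in FeAAD against FeCon and Klf4 in AAD against Con over both sexes. A change of sign was unlikely in advance for differences chosen in this way, and the counts do not describe the other tests of members. With a log2 fold change of at least 1 required as well, the number of members called was 0 in each comparison. Without that requirement, the number past the adjusted p alone was 1 (Srf) in place of 0 for MaAAD against MaNonAD with DESeq2, 0 in place of 1 for FeAAD against FeNonAD with no filter on low counts, in the fit of the compared groups only and with length and GC covariates, and 0 in place of 1 for MaCon against FeCon in the fit of the compared groups only. For NonAD against Con over both sexes it was 2 in place of 1, with Srf added, in the fit of the compared groups only and with the covariates; the covariates also gave 4 in place of 3 for MaAAD against MaCon, with Mef2c added, 2 for MaCon against FeCon, 1 in each sex difference for NonAD and for AAD against Con, and 1 in place of 2 for AAD against NonAD over both sexes. Without FeCon7 and FeCon9 the count was 1 in place of 2 for FeNonAD against FeCon and 0 in place of 1 for MaCon against FeCon. For FeNonAD against FeCon it was 3 in place of 2 with DESeq2 and with the covariates, Klf4 being the third. For FeAAD against FeCon it was 3 in place of 4 in the fit of the compared groups only, with Klf4 lost, and 4 without FeCon7 and FeCon9 and 4 with the covariates, with Klf2 in place of Klf4. For AAD against Con over both sexes it was 4 in place of 3 without FeAAD3, with Klf4 added. Besides FeAAD3, single libraries left out were the 4 of MaNonAD, FeNonAD replicate 8 and FeCon replicate 10, and leaving out each of these gave 1 to 2 members for FeNonAD against FeCon, 0 to 1 for MaAAD against MaNonAD, 1 to 2 for NonAD against Con and 1 to 2 for AAD against NonAD over both sexes. Libraries with the same replicate number did not deviate together (mean r of -0.066 to 0.16 between comparisons, with negative values in each), so the numbers are not taken as pairs; with the replicate number as a block the count was 0 for MaCon against FeCon, 1 for AAD against NonAD over both sexes, 3 for FeAAD against FeCon and 4 for MaAAD against MaCon. The calls absent with the block were those of Klf4 in FeAAD against FeCon (adjusted p = 0.070) and in MaCon against FeCon (0.069) and of Prrx1 in AAD against NonAD over both sexes (0.055), and the call gained was that of Mef2c in MaAAD against MaCon (-0.39, adjusted p = 0.044). The covariates, leaving out FeCon7 and FeCon9 and leaving out FeAAD3 were chosen after seeing the data. Where a call changed, the cause was not tested. The 4 correlated pairs were also 4 with a pseudocount of 0.1. Depth limited the data on Klf5 only, with at most 13 counts in a library, and MaNonAD had 4 mice.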
